A study of Mus musculus with 8 samples.

Results

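The apolipoproteins are the protein part of the lipoprotein particles that carry triglyceride and cholesterol through the blood. The 10 genes described here are Apoa1, Apoa2, Apoa4, Apoa5, Apob, Apoc1, Apoc2, Apoc3, Apoe and Apom, all of which are made in liver. They were taken as the genes whose name in the array annotation was one of these, which gave 15 of the 41174 probes on each array, and all 10 genes were among the 17050 genes that passed the filter on dim probes. Each gene was measured by its brightest probe, and the further probes of Apoa5, Apob and Apoc3 served as a check.

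Liver RNA was hybridised to 8 one-colour arrays, 2 per group, from KKAy and C57BL/6J mice of 4 weeks and from KKAy and C57BL/6J mice of 11 weeks. The KKAy mouse carries the yellow allele of agouti, becomes obese and is prone to diabetes, and both KKAy groups are labelled with diabetes. The C57BL/6J mouse is an inbred strain in wide use that lacks this allele, and both of its groups are labelled normal. KKAy and C57BL/6J differ at many loci besides agouti, so a strain difference is not a difference of that allele alone. The diet was chow, a fast of 13.5 hours preceded sampling, and no source used here states sex. Whether the 2 arrays of a group stand for 2 animals is not stated, so each p-value rests on the spread between these arrays alone, and that spread may be technical.

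Liver secretes very low density lipoprotein, whose scaffold is the protein of Apob, and most of the protein of high density lipoprotein (HDL). Lipoprotein lipase then removes triglyceride from the particles in the circulation: the products of Apoc2 and Apoa5 favour this step and that of Apoc3 opposes it. The product of Apoe is the ligand by which liver takes the remnants back. Several of these genes lie close together in mouse as in human, Apoa1, Apoc3, Apoa4 and Apoa5 in one cluster and Apoc1, Apoc2 and Apoe in another.

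Levels are log2 processed signal above the array's 75th percentile, so 0 is the signal at that percentile and each step of 1 is a doubling. A level compares arrays for one probe and does not rank genes against each other. The 75th percentile lay between 491.6 and 1241 fluorescence units, 56.3% to 66.7% of spots were well above background, and 0 spots were saturated. The 11-week arrays were all on slide 2 and the 4-week arrays on slide 1, so age cannot be told apart from slide. KKAy arrays sat at positions 3 and 4 of each slide and C57BL/6J arrays at positions 1 and 2, so strain and position cannot be told apart either. Of 10 hepatocyte markers, 9 were well above background on both arrays of every group, the exception being Serpina1a. In whole tissue, fewer cells of a type and less RNA per cell cannot be told apart.

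The sequences of the cluster that holds Apoa1, Apoa4 and Apoa5 are shown because these 3 genes carried the lower KKAy levels at 11 weeks. They are the 250 bases before the RefSeq transcription start on GRCm38.p6, written 5′ to 3′ on the gene's strand, with motif matches in capitals. RefSeq windows were matched for 8 of the 10 genes, all but Apoc1 and Apoc3.
Apoa1 (chr9:46228380-46228629, + strand): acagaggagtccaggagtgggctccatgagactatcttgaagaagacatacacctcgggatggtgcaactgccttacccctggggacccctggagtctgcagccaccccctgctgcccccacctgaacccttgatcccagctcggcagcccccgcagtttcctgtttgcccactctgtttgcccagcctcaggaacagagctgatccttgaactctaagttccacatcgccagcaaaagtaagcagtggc
Apoa4 (chr9:46240594-46240843, + strand): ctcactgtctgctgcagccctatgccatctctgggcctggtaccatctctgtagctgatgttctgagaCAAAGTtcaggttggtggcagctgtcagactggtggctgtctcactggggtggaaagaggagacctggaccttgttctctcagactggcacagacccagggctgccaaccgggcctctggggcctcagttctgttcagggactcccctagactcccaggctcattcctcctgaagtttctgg
Apoa5 (chr9:46268358-46268607, + strand): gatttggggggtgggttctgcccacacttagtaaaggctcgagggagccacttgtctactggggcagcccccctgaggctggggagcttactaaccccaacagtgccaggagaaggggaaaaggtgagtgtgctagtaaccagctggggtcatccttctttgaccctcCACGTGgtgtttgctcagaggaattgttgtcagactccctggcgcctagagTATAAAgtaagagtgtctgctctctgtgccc

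Motifs were searched on both strands. They were the basal promoter element TATAAA, the nuclear receptor half-site AGGTCA, the core CAAAGT of sites bound by the liver factor HNF4, the half-site GTTAAT of the liver factor HNF1, the E-box CACGTG of the USF factors, the CCAAT box, and the half-site TGACG of the cyclic AMP response element. The Apoa4 window held CAAAGT, starting 182 bases before the transcription start, as did 12.6% of 32851 windows of the same length. The Apoa5 window shown held CACGTG 82 bases and TATAAA 31 bases before the start, found in 6.02% and 12.4% of windows. Counted from a second RefSeq start of Apoa5, the same matches lay 107 and 56 bases before it. No match of the 7 motifs lay in the Apoa1 window, nor in the windows of Apom and of the first Apoe start. The Apoc2 window held 4 matches, of the nuclear receptor half-site (14.0% of windows), the HNF4 core, the HNF1 half-site (6.43%) and the cyclic AMP half-site (17.8%). These are matches of letters and not measured binding.

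**Figure D1:**
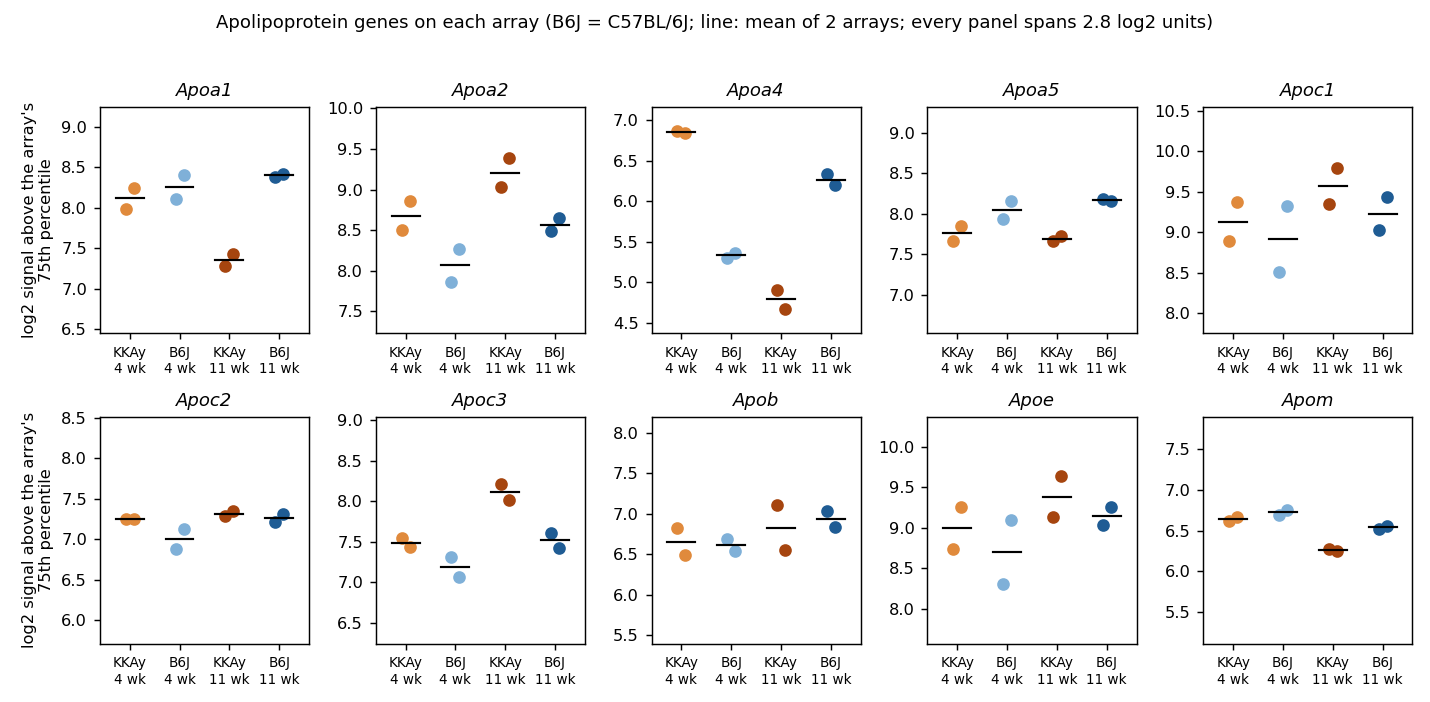
Level of each of the 10 genes on each array, as log2 processed signal above the array's 75th percentile, for KKAy and C57BL/6J (B6J) at 4 and 11 weeks. Points are arrays and lines are means of 2 arrays. Apoa4 is highest in KKAy at 4 weeks, near 6.85, and lowest in KKAy at 11 weeks, near 4.79, and Apoa1 is lowest in KKAy at 11 weeks.

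Apoa4 changed most among the 10 genes, and its strain difference turned round between the ages: it was 2.86-fold higher in KKAy than in C57BL/6J at 4 weeks and 2.77-fold lower at 11 weeks. Its product travels on chylomicrons and HDL and is known mainly from intestine, and in mouse its liver expression is known to vary between strains and with the load of triglyceride. The probe lies on chromosome 9, plus strand, at 45992573 to 45993316 on mm8, the build of the array annotation. At 4 weeks its level was 6.86 and 6.84 on the KKAy arrays, against 5.30 and 5.37 on the C57BL/6J arrays. At 11 weeks it was 4.91 and 4.68 on the KKAy arrays, against 6.33 and 6.20 on the C57BL/6J arrays. The groups ran, from high to low, 4-week KKAy, 11-week C57BL/6J, 4-week C57BL/6J and 11-week KKAy, and no array of one group overlapped another group.

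The difference of Apoa4 between KKAy and C57BL/6J at 4 weeks was 1.52 ± 0.12 on the log2 scale (SE, limma adjusted p = 0.000974, 2 arrays per group). At 11 weeks it was -1.47 (limma adjusted p = 0.000814), with a 95% interval of -1.77 to -1.18. The interaction, the strain difference at 11 weeks minus that at 4 weeks, was -2.99 ± 0.17 (SE, limma adjusted p = 0.00201), and Apoa4 was the only one of the 10 genes to pass that test, which 3.82% of all genes tested passed and 1.81% passed below 0. In KKAy, Apoa4 was 4.17-fold lower at 11 weeks than at 4 weeks (log2 -2.06, limma adjusted p = 0.000432). In C57BL/6J it was 1.91-fold higher at 11 weeks than at 4 weeks (log2 0.93, limma adjusted p = 0.00835). The 4-week strain difference missed the threshold when arrays were not scaled (1.22, limma adjusted p = 0.0943) and passed under the 17 others of 18 alternatives. The age difference in C57BL/6J missed it under quantile normalization (0.81, limma adjusted p = 0.0776), without scaling (0.42, limma adjusted p = 0.485) and when any one C57BL/6J array was left out (0.864 to 0.997, limma adjusted p = 0.0561 to 0.0854). The strain and age comparisons share arrays, so they are not separate evidence.

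Some markers of other cell types differed between these groups, in both directions. Since Apoa4 is an intestinal gene too, 6 markers of intestinal epithelium were read: Lct and Cdx2 were not well above background in any group, Vil1 was not in KKAy at either age, and Sis was not in KKAy at either age nor in C57BL/6J at 11 weeks. The summed level of the 4 without Lct and Cdx2 at 4 weeks was 39.0 to 58.3 times the array's 75th percentile in KKAy and 40.9 to 57.1 times in C57BL/6J. At 11 weeks the sum was 32.9 to 50.7 times in KKAy and 46.4 to 59.2 times in C57BL/6J. The ranges of the strains overlapped at both ages, and 1 of these 4 markers passed at each age, lower in KKAy. Of 3 adipocyte markers, Lep was not well above background in any group, and the summed level of Adipoq and Plin1 was 0.0537 to 0.0693 in KKAy and 0.133 to 0.134 in C57BL/6J at 11 weeks. At 4 weeks that sum was 0.0516 to 0.0684 in KKAy and 0.0272 to 0.0305 in C57BL/6J. The sum took the direction of Apoa4 at both ages, but Plin1 was not well above background in KKAy at either age, and neither Plin1 nor Adipoq was in C57BL/6J at 4 weeks. Of these 2 markers, 1 passed as higher in KKAy at 4 weeks and 1 as lower at 11 weeks. Both passed the interaction below 0, as Apoa4 did. Between the strains 15.4% of all genes tested passed at 4 weeks and 21.5% at 11 weeks. The 9 Kupffer cell and macrophage markers were all lower in KKAy at 4 weeks and 6 of the 9 were at 11 weeks (limma, adjusted p under 0.05 over all genes). Their summed level at 4 weeks was 54.0 to 61.7 in KKAy and 145 to 174 in C57BL/6J, and at 11 weeks 33.4 to 35.5 in KKAy and 59.6 to 65.8 in C57BL/6J. Of 6 stellate cell markers, 3 were lower and 1 higher in KKAy at 11 weeks, where their sum was 22.3 to 28.1 in KKAy and 41.1 to 45.4 in C57BL/6J. At 4 weeks 2 were lower, and the sum was 42.6 to 49.9 in KKAy and 51.0 to 58.6 in C57BL/6J. The sum of 5 sinusoidal endothelium markers was instead higher in KKAy. It was 47.7 to 49.4 against 33.2 to 33.6 in C57BL/6J at 4 weeks, and 36.0 to 36.4 against 28.1 to 29.4 at 11 weeks. Among those 5, 1 was higher at 4 weeks, and 1 was higher and 1 lower at 11 weeks. Of 5 bile duct markers 1 was lower in KKAy at each age, and of 2 pancreas markers tested 1 was higher at 11 weeks. Of the 9 hepatocyte markers 1 was lower in KKAy at 4 weeks, and 1 was higher and 2 lower at 11 weeks. The part of these cell types in the differences of the apolipoprotein genes was not tested.

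**Figure D2:**
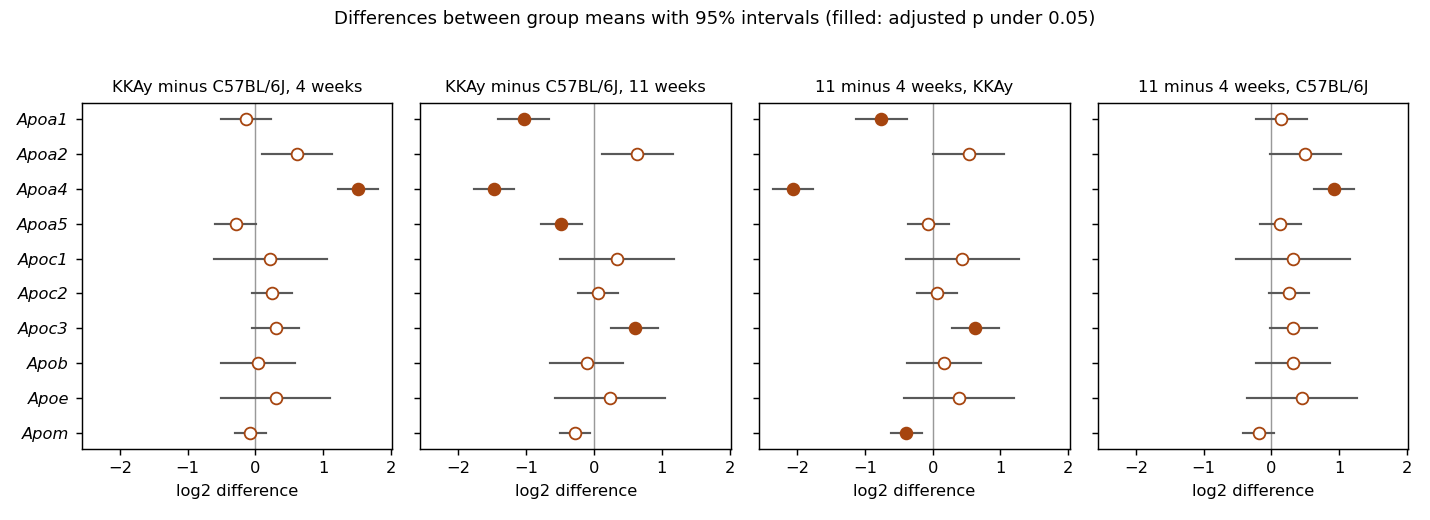
Differences between group means on the log2 scale for the 10 genes in 4 comparisons, with 95% intervals. Filled points passed limma at an adjusted p under 0.05. Apoa4 lies at 1.52 in KKAy over C57BL/6J at 4 weeks and at -1.47 at 11 weeks.

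The strain comparison sets liver of KKAy mice, labelled with diabetes, against that of C57BL/6J mice of the same age, labelled normal. Strain and this label cannot be told apart. At 4 weeks Apoa4 was the 1 gene of 10 that passed, against 15.4% of all genes tested, of which 6.5% were higher in KKAy. At 11 weeks 4 of 10 passed, against 21.5% of all genes tested. Apoa1, Apoa4 and Apoa5 were the 3 that were lower in KKAy (11.7% of all genes), and Apoc3 was the 1 that was higher (9.81% of all genes). All 4 belong to the cluster on chromosome 9. The median log2 difference of the 10 genes was 0.23 at 4 weeks, where that of all genes was 0.02, and -0.03 at 11 weeks, where that of all genes was -0.01. At an unadjusted p under 0.05 the counts were 2 and 6 of the 10 genes. The share of all genes at that unadjusted threshold was not computed, so these counts have no baseline.

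Among the HDL proteins, Apoa1 was lower in KKAy at 11 weeks. Apoa1 encodes the main structural protein of HDL, which also activates the enzyme that esterifies cholesterol on the particle, and its probe lies at 45980833 to 45980892 of chromosome 9 (mm8, plus strand). Its level at 11 weeks was 7.28 and 7.43 on the KKAy arrays, against 8.38 and 8.41 on the C57BL/6J arrays. At 4 weeks it was 7.98 and 8.25 on the KKAy arrays, against 8.10 and 8.40 on the C57BL/6J arrays. Only the KKAy arrays at 11 weeks stood apart, below the 6 others, and the strains overlapped at 4 weeks.

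The 11-week difference of Apoa1 was -1.04 ± 0.15 (SE, log2), a 2.06-fold lower level in KKAy (limma adjusted p = 0.00626). Without C57BL/6J 11 weeks replicate 2 the value was -1.02 and the adjusted p was 0.0519. At 4 weeks the strain difference was -0.14 with a 95% interval of -0.51 to 0.24 (limma adjusted p = 0.679). The interaction was -0.90 (95% interval -1.43 to -0.38, limma adjusted p = 0.0888), so the 2 strain differences were not shown to differ after adjustment.

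Apoa2, whose product is the other abundant protein of HDL, did not pass in any comparison of the main setting, though its KKAy arrays lay above the C57BL/6J arrays of the same age. Its level at 4 weeks was 8.50 and 8.85 in KKAy and 7.87 and 8.27 in C57BL/6J, and at 11 weeks 9.03 and 9.38 in KKAy and 8.49 and 8.64 in C57BL/6J. The strain difference was 0.61 ± 0.21 at 4 weeks (SE, limma adjusted p = 0.126) and 0.64 ± 0.21 at 11 weeks (SE, limma adjusted p = 0.0884). Both passed under quantile normalization (0.52, adjusted p = 0.014, and 0.39, adjusted p = 0.0289) and under scaling to the spike-in controls (0.95, adjusted p = 0.0187, and 0.78, adjusted p = 0.0403). Apom encodes a lipocalin that carries sphingosine phosphate on HDL. Its 11-week level was 6.27 and 6.25 in KKAy and 6.52 and 6.56 in C57BL/6J. The arrays of the 2 strains did not overlap, but the difference of -0.28 ± 0.09 (SE) did not pass after adjustment (limma adjusted p = 0.0877).

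Of the genes that act on lipoprotein lipase, Apoc3 was higher and Apoa5 lower in KKAy at 11 weeks. The product of Apoc3 slows the lipase and remnant uptake, and its probe lies at 45984275 to 45984334 of chromosome 9 (mm8, minus strand). At 11 weeks the Apoc3 level was 8.21 and 8.02 on the KKAy arrays, against 7.61 and 7.43 on the C57BL/6J arrays. At 4 weeks it was 7.54 and 7.44 on the KKAy arrays, against 7.31 and 7.07 on the C57BL/6J arrays. The KKAy arrays were above the C57BL/6J arrays at both ages, by 1.52-fold at 11 weeks (log2 0.60 ± 0.14, SE, limma adjusted p = 0.0315) and by a difference of 0.30 that did not pass at 4 weeks (limma adjusted p = 0.249). The second Apoc3 probe gave 0.47 at 11 weeks and 0.29 at 4 weeks.

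The product of Apoa5 favours the lipase, and loss of it raises plasma triglyceride in mouse and human. Its probe lies at 46021994 to 46022053 of chromosome 9 (mm8, plus strand). The Apoa5 level at 11 weeks was 7.66 and 7.72 on the KKAy arrays, against 8.19 and 8.16 on the C57BL/6J arrays. At 4 weeks it was 7.67 and 7.85 on the KKAy arrays, against 7.94 and 8.15 on the C57BL/6J arrays. The KKAy arrays were the lower ones at both ages, with no overlap. The difference was -0.48 ± 0.12 at 11 weeks (SE, 1.4-fold lower in KKAy, limma adjusted p = 0.0406) and -0.29 ± 0.12 at 4 weeks (SE, limma adjusted p = 0.206). The second Apoa5 probe gave -0.53 at 11 weeks and -0.42 at 4 weeks. With spike-in scaling the 4-week difference was 0.06 (limma adjusted p = 0.816).

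Both of these 11-week calls depended on the settings. Of 18 alternative settings 5 kept that of Apoa5 and 7 kept that of Apoc3, and leaving out any one of the 8 arrays put Apoa5 above the threshold (-0.51 to -0.45, adjusted p = 0.0549 to 0.196). Apoc3 lost its call without any one of the 4 arrays at 11 weeks (0.50 to 0.70, adjusted p = 0.0593 to 0.177) or either KKAy array at 4 weeks (0.60, adjusted p = 0.0579). Its difference stayed above 0 in all of them, from 0.41 to 0.74, as that of Apoa5 stayed below 0, from -0.67 to -0.34.

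Apoc2 encodes the obligate cofactor of lipoprotein lipase. Its level was 7.25 and 7.25 in KKAy and 6.88 and 7.13 in C57BL/6J at 4 weeks, and 7.29 and 7.35 in KKAy and 7.22 and 7.31 in C57BL/6J at 11 weeks. The strains overlapped at 11 weeks, where the difference of 0.05 had a 95% interval of -0.24 to 0.35. At 4 weeks it was 0.24, with a 95% interval of -0.05 to 0.54, and with spike-in scaling it was 0.59 and passed (limma adjusted p = 0.0446).

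Apob, which encodes the scaffold of very low density lipoprotein, did not differ beyond the spread of its arrays. At 4 weeks its level was 6.83 and 6.49 in KKAy and 6.69 and 6.54 in C57BL/6J, and at 11 weeks 7.11 and 6.55 in KKAy and 7.03 and 6.84 in C57BL/6J. The strains overlapped at both ages, and the 95% interval of the difference was -0.50 to 0.58 at 4 weeks and -0.65 to 0.43 at 11 weeks. The 3 other Apob probes gave differences of 0.03 to 0.23 at 4 weeks and of -0.04 to -0.03 at 11 weeks.

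Apoe, the remnant ligand, and Apoc1, an inhibitor of remnant uptake that lies beside it on chromosome 7, did not pass in any comparison either. The Apoe level at 4 weeks was 8.74 and 9.26 in KKAy and 8.30 and 9.09 in C57BL/6J, and at 11 weeks 9.13 and 9.64 in KKAy and 9.03 and 9.26 in C57BL/6J. That of Apoc1 was 8.89 and 9.38 in KKAy and 8.51 and 9.32 in C57BL/6J at 4 weeks, and 9.35 and 9.80 in KKAy and 9.02 and 9.44 in C57BL/6J at 11 weeks. The strains overlapped for both genes at both ages. The 95% intervals of the strain difference were wide, -0.51 to 1.11 at 4 weeks and -0.57 to 1.05 at 11 weeks for Apoe, and -0.62 to 1.05 and -0.50 to 1.17 for Apoc1.

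The signals before scaling bear on these last genes and on Apoa2, Apoc2 and Apoc3. The unscaled signal of Apoe lay between 355245 and 394084 fluorescence units on the 8 arrays, a 1.11-fold range, and that of Apoc1 between 351832 and 452454, a 1.29-fold range. The 75th percentile of the same arrays varied 2.52-fold and was higher on replicate 1 in 4 of 4 groups. The scaled levels of Apoe and Apoc1 were accordingly lower on replicate 1 in every group. The unscaled signal of Apoa2 lay between 215778 and 347913 units, a 1.61-fold range, also narrower than that of the percentile. So were the ranges of Apoc2, 1.82-fold, and of Apoc3, 2.11-fold by its brightest probe and 1.88-fold by the other. The scaled level of Apoa2 was lower on replicate 1 in every group too, as were those of Apoa1 and Apoc2. That of Apoc3 was higher on replicate 1 in every group. Over the same arrays the unscaled Apoa1 signal spanned 84854 to 341503 units, 4.02-fold, and that of Apoa4 12555 to 105975 units, 8.44-fold. Spots as bright as these were read from a second scan at lower gain, which held for Apoe, Apoc1 and Apoa1 on 8 of 8 arrays and for Apoa4 on 7 of 8. Whether the brightest probes could still follow the amount of RNA was not tested.

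**Figure D3:**
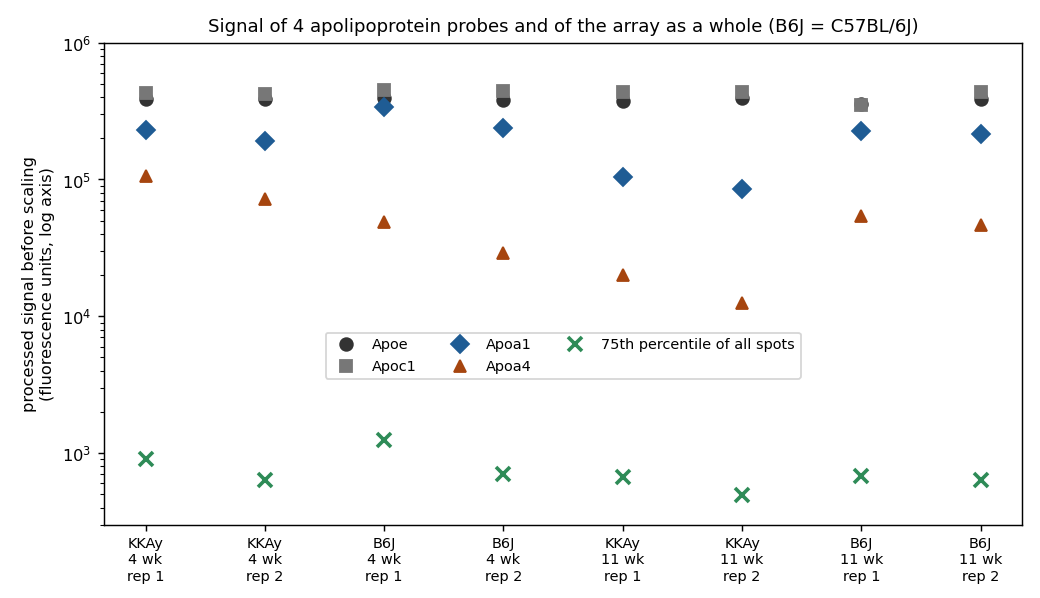
Unscaled processed signal in fluorescence units (log axis) of the probes of Apoe, Apoc1, Apoa1 and Apoa4 and the 75th percentile of all spots, on each of the 8 arrays. Apoe spans 1.11-fold and Apoc1 1.29-fold while the 75th percentile spans 2.52-fold and Apoa4 8.44-fold.

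The age comparison asks what differs between 11 and 4 weeks within a strain, with age and slide together. In KKAy 4 of 10 genes passed, against 18.5% of all genes tested. Apoa1, Apoa4 and Apom were the 3 that were lower at 11 weeks (10.5% of all genes), and Apoc3 was the 1 that was higher (8.01% of all genes). In C57BL/6J Apoa4 was the 1 gene of 10 that passed, against 8.14% of all genes tested, of which 1.99% were higher at 11 weeks. The median log2 difference was 0.12 in KKAy and 0.32 in C57BL/6J for the 10 genes, and 0.03 and 0.07 for all genes. At an unadjusted p under 0.05 the counts were 5 of 10 in KKAy and 1 of 10 in C57BL/6J, again without a share of all genes to set them against.

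Apoa1 in KKAy was 1.69-fold lower at 11 weeks than at 4 weeks (log2 -0.76 ± 0.15, SE, limma adjusted p = 0.0221). In C57BL/6J its difference was 0.15 with a 95% interval of -0.23 to 0.52. Apom in KKAy had a level of 6.27 and 6.25 at 11 weeks, against 6.62 and 6.67 at 4 weeks, a 1.31-fold lower level (log2 -0.39 ± 0.09, SE, limma adjusted p = 0.0381). In C57BL/6J it had 6.52 and 6.56 at 11 weeks, against 6.69 and 6.76 at 4 weeks, and that difference of -0.18 did not pass (limma adjusted p = 0.343). The Apom arrays at 11 weeks were below those at 4 weeks in both strains, and the interaction was -0.20 with a 95% interval of -0.53 to 0.12.

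Apoc3 in KKAy was 1.54-fold higher at 11 weeks than at 4 weeks (log2 0.63 ± 0.14, SE, limma adjusted p = 0.0316), and 0.54 by its second probe. In C57BL/6J it differed by 0.33, which did not pass (limma adjusted p = 0.267). Of 18 alternative settings, 10 kept the KKAy call of Apoa1, 6 that of Apoc3 and 6 that of Apom. Leaving out any one KKAy array ended each of the 3 calls, with values of -0.89 to -0.63 for Apoa1 (adjusted p = 0.0517 to 0.11), 0.53 to 0.72 for Apoc3 (adjusted p = 0.0615 to 0.142) and -0.41 to -0.36 for Apom (adjusted p = 0.113 to 0.169). So did leaving out either C57BL/6J array at 11 weeks, with adjusted p = 0.0572, 0.0657 and 0.0971 for Apoa1, Apoc3 and Apom. Without either C57BL/6J array at 4 weeks Apom had an adjusted p of 0.0748. The Apoc3 value was 0.30 under quantile normalization, 0.41 with spike-in scaling and 0.22 without scaling. That of Apom was -0.60 with spike-in scaling (adjusted p = 0.0508) and -0.79 without scaling (adjusted p = 0.202).

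Genes that assemble, receive or regulate these lipoproteins were read beside the 10. Of all genes tested, 15.4% passed in the strain comparison at 4 weeks, with 6.5% higher in KKAy. At 11 weeks 21.5% passed, with 9.81% higher and 11.7% lower in KKAy. The counts of these lists are to be read against those shares. Of 18 genes of lipoprotein assembly and secretion, 3 were higher in KKAy at 4 weeks and 5 at 11 weeks. They included Rbm47, a cofactor of Apob RNA editing, which was 1.62-fold higher at 4 weeks (limma adjusted p = 0.0187), and Smlr1, needed for the release of lipoproteins from mouse liver, 2.66-fold higher at 11 weeks (limma adjusted p = 0.0236). Apobec1, the enzyme that edits Apob RNA, was 2.65-fold higher by its brightest probe at 11 weeks (log2 1.41), but its other probe gave -0.14. Tmem41b likewise had 0.61 by its brightest probe at 11 weeks, and 0.08 and -0.30 by the others. At 4 weeks Sar1b, a coat protein that exports large particles from the endoplasmic reticulum, was 1.4-fold higher (limma adjusted p = 0.0432).

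Of 18 receptors, lipases and their modulators, 3 were higher in KKAy at 4 weeks, and 5 were higher and 2 lower at 11 weeks. In either direction 15.4% and 21.5% of all genes tested passed at these ages. Angptl8, an inhibitor of lipoprotein lipase, was 1.58-fold higher at 4 weeks (limma adjusted p = 0.0106) and 2.69-fold higher at 11 weeks (limma adjusted p = 0.000607). Cd36, a fatty acid transporter, was 3.43-fold higher at 11 weeks (limma adjusted p = 0.000208). In KKAy, Vldlr, a receptor for triglyceride-rich particles, was 5.08-fold lower at 11 weeks than at 4 weeks (log2 -2.35, limma adjusted p = 0.0015), and it was lower in C57BL/6J as well (log2 -1.24, limma adjusted p = 0.0184). The lipase gene Lpl was lower at 11 weeks in both strains too, by -1.67 on the log2 scale in KKAy (limma adjusted p = 0.00851) and by -2.27 in C57BL/6J (limma adjusted p = 0.00475). The interactions of Vldlr and Lpl did not pass (limma adjusted p = 0.106 and 0.485). Of 10 genes of HDL handling, Pdzk1, a scaffold of the HDL receptor, passed at both ages, 1.79-fold higher in KKAy at 4 weeks (limma adjusted p = 0.0452) and 1.98-fold at 11 weeks (limma adjusted p = 0.0214).

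Of 27 transcriptional regulators tested, 5 were higher and 4 lower in KKAy at 4 weeks, and 8 were higher and 1 lower at 11 weeks. The shares of all genes tested that passed were 15.4% and 21.5%. Usf1, which binds E-boxes of the kind matched in the Apoa5 window, was 2.83-fold higher at 4 weeks (limma adjusted p = 0.00181) and 3.44-fold higher at 11 weeks (limma adjusted p = 0.000768). A link between Usf1 and the level of Apoa5 was not tested. Srebf1, a regulator of lipogenesis, was 2.35-fold higher at 11 weeks (limma adjusted p = 0.000978). Nr0b2, a corepressor of nuclear receptors, was 2.07-fold lower in KKAy at 4 weeks (log2 -1.05, limma adjusted p = 0.00456) and higher in KKAy at 11 weeks (log2 0.91, limma adjusted p = 0.00625). Within KKAy it was 6.32-fold higher at 11 weeks than at 4 weeks (limma adjusted p = 0.000276). Ppargc1b, a coactivator of lipid genes, was lower at 11 weeks than at 4 weeks in KKAy (1.96-fold, limma adjusted p = 0.00206) and in C57BL/6J (1.6-fold, limma adjusted p = 0.00987).

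Over all genes tested, 15.4% passed between the strains at 4 weeks and 21.5% at 11 weeks. Of 14 other apolipoprotein genes tested, 3 were higher and 1 lower in KKAy at 4 weeks, and 4 were higher at 11 weeks. Those 4 were the serum amyloid A genes, whose proteins ride on HDL. Saa3 was 13.8-fold, Saa2 8.76-fold and Saa1 8.65-fold higher (limma adjusted p = 0.000192, 0.000998 and 0.000556), and Saa4 had a log2 difference of 1.95 (limma adjusted p = 0.00749). Saa1 and Saa2 are near-identical in sequence, so their probes may share RNA. The gene that was lower at 4 weeks was Apol9b, 2.61-fold (limma adjusted p = 0.00156).

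Genes beside the 2 clusters were read to see whether a whole region differed. Anywhere in the genome, 15.4% of genes tested passed between the strains at 4 weeks and 21.5% at 11 weeks. Of 7 neighbours of the Apoa1 cluster, Sik3, a kinase, was lower in KKAy at 4 weeks (log2 -0.60, limma adjusted p = 0.0311) and at 11 weeks (log2 -0.86, limma adjusted p = 0.00734), and its second probe gave -0.60 and -0.85. Zpr1 was lower at 11 weeks as well (log2 -0.45, limma adjusted p = 0.0486), and Tagln had 0.88 by its brightest probe and -0.37 by the other. Of 7 neighbours of the Apoe cluster, Cblc was higher at both ages (log2 0.71 and 0.50, limma adjusted p = 0.00511 and 0.0142) and Relb was lower at 4 weeks (log2 -0.77, limma adjusted p = 0.0063).

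**Figure D4:**
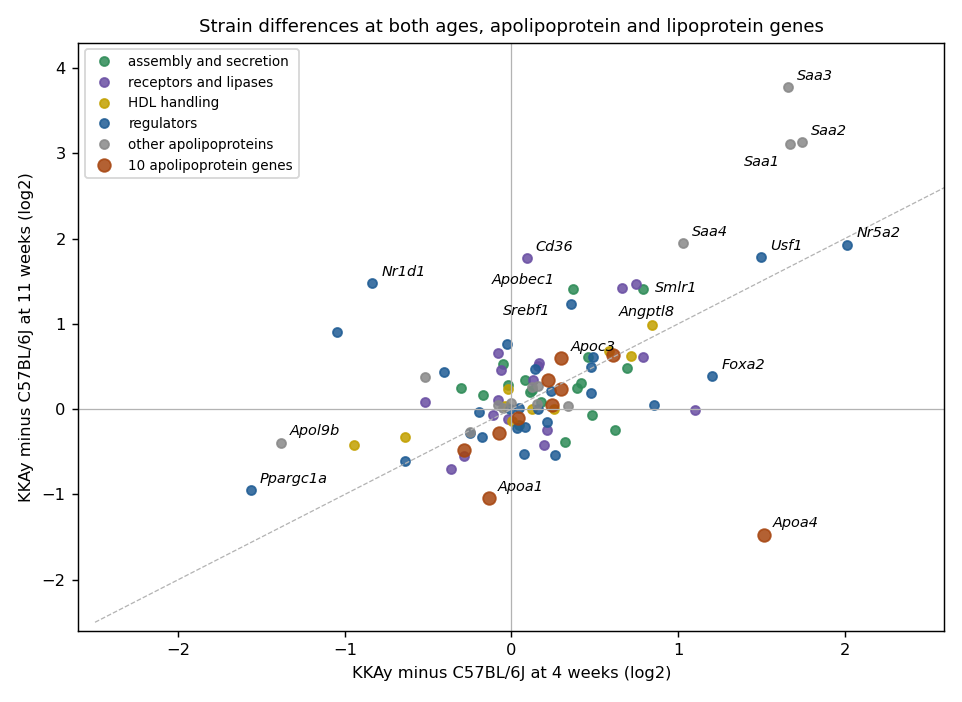
Strain difference (KKAy minus C57BL/6J, log2) at 11 weeks against that at 4 weeks for each of the 10 apolipoprotein genes and the genes of lipoprotein assembly, receptors and lipases, HDL handling, regulation and other apolipoproteins. The dashed line marks equal differences. Apoa4, at 1.52 and -1.47, lies in the lower right, and Saa3, at 1.66 and 3.78, at the top.

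Among the genes whose pattern over the 8 arrays was most like that of Apoa4 were Shld1 (Pearson r = 0.984), Pank1 (r = 0.981), Zfp810 (r = 0.977) and Wdr93 (r = 0.977). These genes were picked for the highest r among all named genes on the same 8 arrays, so the values are a description. Their group means ran in the same order as those of Apoa4, over a smaller range, with Pank1, for example, at 4.27 in KKAy and 3.84 in C57BL/6J at 4 weeks, and 3.76 in KKAy and 4.09 in C57BL/6J at 11 weeks. For the other members the closest genes were Npm3 for Apoa1 (r = 0.994), Noa1 for Apoc3 (r = 0.993), Slc39a7 for Apoa2 (r = 0.997), Cma1 for Apoa5 (r = 0.986), Olfr1348 for Apom (r = 0.996), Stxbp3 for Apoc2 (r = 0.973) and Adra1a for Apob (r = 0.988). Apoe was closest to Ambp (r = 0.996) and Apoc1 to Fabp1 (r = 0.994), both bright liver probes. With quantile normalization the r of the genes named for Apoa4 was 0.939 to 0.992, that of Npm3 0.947 and that of Slc39a7 0.929. The others were lower, 0.353 for Ambp, 0.565 for Stxbp3, 0.612 for Cma1, 0.718 for Fabp1, 0.758 for Noa1, 0.768 for Adra1a and 0.874 for Olfr1348.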

How the data were processed

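Liver total RNA was labelled with Cy3 and read on one-colour Agilent arrays. Per the file headers, the deposited intensity of each spot came from Agilent Feature Extraction 9.5.1.1, with background subtraction, a correction of spatial trends and a merge of scans at high and low gain. The deposited value table holds log2 values that equal the log2 processed signal minus 1 constant per array (within 0.001), and it served as an alternative. Of its columns, 0 belonged to no sample.

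Control spots and flagged spots (59 to 89 per array) were dropped, spots of a probe averaged, and each array scaled to its 75th percentile on the log2 scale. A probe was kept if well above background on the 2 arrays of any group (25320 of 41174), and a gene took its brightest probe. Names came from the RefSeq table of GRCm38.p6 by accession (24362 probes), symbol (6299) or older symbol (2426); 8072 kept the file's name. Means of the 4 groups were estimated with lmFit and eBayes of limma 3.58.1 (R 4.3.3) over all 8 arrays, with 4 residual and 1.921 prior degrees of freedom and Benjamini-Hochberg adjustment over all genes at 0.05. The number of arrays limits the precision. The fit was tested on simulated data in which the arrays varied independently. Same-numbered arrays deviated together in the real data, which that test does not cover.

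The 10 genes, the gene lists and the alternatives were chosen with earlier results of these data known. From each list, up to 3 genes per comparison with the smallest adjusted p among those past the threshold were open to naming; Saa4 was named after its value was seen. Some genes that the naming rules pick are not reported here. Alternatives were normexp background, quantile normalization, the deposited value table, spike-in scaling, other probe filters, the mean of a gene's probes, fewer arrays in the fit, and the replicate number as a block. Tables and figures were made in Python 3.11.15 (pandas 2.3.3, numpy 2.4.6, matplotlib 3.10.9).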

Additional observations from a re-analysis of the deposited data

Results flagged for a closer look

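The strain difference at 11 weeks was set against that at 4 weeks by the interaction test itself (limma, adjusted p under 0.05 over all genes), which 3.82% of all genes tested passed. Among the 10 apolipoprotein genes Apoa4 passed (-2.99, log2, KKAy minus C57BL/6J at 11 weeks minus the same at 4 weeks), which was higher in KKAy on both arrays at 4 weeks and lower on both at 11 weeks.

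In the lists read beside them up to 3 genes per list are named, and the regulators held more that passed, 4 above 0 and 1 below. Of the named genes the interaction was above 0 for Saa3 (2.12), Nr0b2 (1.96), Cd36 (1.69), Apobec1 (1.04), Apol9b (0.99), Relb (0.91), Mlxipl (0.84) and Lipc (0.73), and below 0 for Foxa3 (-0.81). The second probe of Apobec1 gave an interaction value of 0.96, near that of the brightest, while the probes disagreed on the strain difference at 11 weeks. Only the value of the second probe was read, not whether it passed. Age goes with the slide in each of these values.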

How the results depend on the processing

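Of 11 calls among the 10 genes, 3 held under every alternative run: Apoa4 at 11 weeks (-1.66 to -1.33), between ages in KKAy (-2.46 to -1.94) and in the interaction (-3.19 to -2.87). No call among the 10 genes changed sign. Over all 11, 133 of 197 values kept the call. For the 64 calls of other genes that the naming rules pick, 834 of 1143 values kept the call. Another 308 kept the sign but no longer passed, and Tmem41b at 4 weeks reversed to -0.03 with the mean of its probes.

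Counts are given for the 10 genes, then for all genes. At 4 weeks (1 and 2629) they were 2 with quantile normalization, 3 with spike-in scaling, 0 and 1133 without scaling (an alternative added after the data were seen), 1512 genes without a filter and 1396 with the arrays compared alone. At 11 weeks (4 and 3668) they were 2 and 2116 without a filter, 2 and 1210 without scaling, 2 and 2091 with the arrays compared alone, and 2398 genes with normexp. Between ages in C57BL/6J (1 and 1387) they were 0 with quantile normalization, 0 without scaling, 672 genes with normexp and 682 without a filter. Between ages in KKAy (4 and 3160) they were 2 with spike-in scaling, 1 and 1458 without a filter, 2 and 1390 without scaling, 1 and 739 with the arrays compared alone, and 1923 genes with normexp. For the interaction (1 and 652) 327 genes passed with normexp, 414 with spike-in scaling, 142 without a filter and 118 without scaling. The cause of these changes was not tested.

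Leaving out 1 array gave 1 member and 1307 to 2577 genes at 4 weeks, 1 to 3 members and 1478 to 3058 genes at 11 weeks, 0 to 1 and 432 to 1273 between ages in C57BL/6J, 1 to 3 and 1315 to 2376 between ages in KKAy, and 1 and 58 to 287 for the interaction; the lone array left in a group is assumed to vary like the others.

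Same-numbered arrays deviated together (correlations of 0.53 to 0.676 over 6 pairs of groups), but the labels give no source for a pairing and there are 2 numbers. With the replicate number as a block, 4 members and 7502 genes passed at 4 weeks, 6 and 9400 at 11 weeks, 5 and 6068 between ages in C57BL/6J, 6 and 9190 between ages in KKAy, and 3 and 5343 for the interaction. The members that the block added were Apoa2, Apoa5 and Apoc3 at 4 weeks, Apoa2 and Apom at 11 weeks, Apoa2, Apoc2, Apoc3 and Apom between ages in C57BL/6J, Apoa2 and Apoc1 between ages in KKAy, and Apoa1 and Apoc3 for the interaction; the adjusted p of Apoa2 was 0.0033, 0.00217, 0.00909 and 0.00424 in these 4 comparisons.

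Spike-in scaling moved the median of all genes to 0.36 at 4 weeks, 0.14 at 11 weeks, -0.18 between ages in KKAy and -0.20 for the interaction. Without scaling the medians were -0.28 and -0.20 for the strain differences at 4 and 11 weeks, and -0.44 and -0.38 between ages in C57BL/6J and KKAy. The share of calls that were higher in KKAy at 4 weeks was 42.1%, against 75.8% with spike-in scaling and 22.4% without scaling; at 11 weeks it was 45.6%, 60.7% and 35.4%. The share higher at 11 weeks than at 4 weeks in KKAy was 43.2%, against 19.5% with spike-in scaling and 14.5% without scaling. In C57BL/6J it was 24.4%, against 6.4% without scaling and 52.7% with the block. Of interaction calls 52.8% were above 0, against 36.0% with spike-in scaling.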
